A study of Mus musculus with 8 samples.

Results

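The genes described are 9 components of insulin and insulin-like growth factor (IGF) signalling, measured by single-cell RNA sequencing in endothelial cells (ECs) of mouse breast tumours. They comprise the receptors Insr and Igf1r, the adaptors Irs1 and Irs2, the ligand Igf2 and the secreted binding proteins Igfbp3, Igfbp4, Igfbp5 and Igfbp7. They were taken by name from the 8 expression tables, and are 9 of 20408 genes listed in any library. Tumour cells were sorted as live CD31+ cells, and the values below are over the 7159 of 8204 deposited cells in which Pecam1, the gene of CD31, had a value above 0.

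There were 4 groups with 2 libraries each. Spontaneous tumours arose in female MMTV-PyMT mice, in which the MMTV promoter drives the polyoma middle T oncogene, and were treated from 9 weeks of age. Implanted tumours came from MMTV-PyMT tumour cells, cultured for 2 days and placed with Matrigel in the mammary fat pad of female mice of 8 to 9 weeks. Tumours of each model received, by intratumoural injection, 14 µg of the STING agonist 3′3′-cGAMP in 70 µl or 70 µl of PBS alone, and were collected after 3 h. The labels name the strain C57BL/6 and the methods FVB, and which is right was not settled here. The methods give 2 mice per group, but nothing ties a library to a mouse, so p-values measure the spread between these libraries.

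Insulin and the IGFs bind the receptor tyrosine kinases encoded by Insr and Igf1r, which phosphorylate the adaptors IRS1 and IRS2 and so feed the PI3K-AKT and MAPK cascades. IGFBP proteins hold IGFs in the extracellular space and set how much ligand reaches the receptor, and proteases release it again. In ECs this pathway is known for survival, nitric oxide production, nutrient uptake and transport of insulin across the vessel wall.

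After cGAMP, Insr and Igfbp4 fell in both tumour models. Insr was 1.56-fold lower in spontaneous and 1.42-fold lower in implanted tumours, and Igfbp4 fell by 0.74 and 0.70 on the log2 scale. Igfbp7 was also called lower in implanted tumours, but that call depended on the scaling of the libraries, the filter on low values and single libraries. After either injection, Insr and Igf1r were lower in ECs of implanted than of spontaneous tumours. Both Igf1r calls depended on single libraries, and the one after PBS also on the filter on low values. The binding proteins differed between vessel types: Igfbp4 was higher in arterial-marker, Igfbp3 in tip-marker, Igfbp7 in AQP7+ capillary-marker and Igfbp5 in lymphatic-marker cells.

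Of the 9 genes, 7 passed the filter of a level of 5 CPM (each cell's UMIs scaled to 1 common total, then averaged over cells) in 2 or more libraries, and Irs1 and Igf2 did not. Genes were tested with limma on log2(mean CPM + 1), with 1 value per library, and p-values were adjusted over all 10424 genes tested. In spontaneous tumours cGAMP lowered 2 of the 7 and raised none, against a background of 12.7% of genes called, 5.09% higher and 7.59% lower. In implanted tumours it lowered 3, against 25% of genes called, 8.6% higher and 16.4% lower. Irs2 was called higher there, but it entered the test only through the spontaneous cGAMP libraries, in which it was highest, so nothing rests on that call. No member was called for a difference between these 2 responses, where 0.662% of genes were called, 0.201% higher and 0.46% lower in the implanted model. At an unadjusted p under 0.05 that comparison gave 1 of the 7 members, Igfbp3, beside 1400 of the 10424 genes. Against spontaneous tumours, 2 members were lower and none higher in implanted tumours after PBS, where 7.83% of genes were called, 3.39% higher and 4.44% lower. The same 2 members were lower after cGAMP, where 13.8% of genes were called, 5.23% higher and 8.53% lower. These comparisons share libraries, so they are not independent of each other.

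The median log2 change of the 7 genes was -0.33 in spontaneous and -0.29 in implanted tumours after cGAMP, beside -0.10 over all genes in each. Between models it was -0.62 after PBS and -0.34 after cGAMP, beside -0.06 and -0.07 over all genes. The 7 genes include Irs2, which passed the filter only through the spontaneous cGAMP libraries. Another scaling of the libraries, by the median of ratios, moved the share of higher genes among all calls from 40.2 to 65.3% and from 34.3 to 51.7% for the cGAMP responses. For the model comparisons that share moved from 43.3 to 65.4% after PBS and from 38 to 58.3% after cGAMP.

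Library depth was 7863535 to 16506086 UMIs, with 601 to 1529 Pecam1+ cells per library. The first implanted cGAMP library stood apart, with a median of 3049 UMIs per Pecam1+ cell against 9523 to 14707.5 in the others, and with 75.5% of its cells Pecam1+ against 88.7 to 92.8%. All 8 pan-endothelial markers were listed in every library, with a summed level of 4943 to 5935 CPM. Cells that also held at least 3 markers of mural, fibroblast, epithelial, immune or adipocyte cells made up 24.3% of Pecam1+ cells, 12.5 to 43% by library. The mural share moved with treatment: cells with at least 3 of 10 mural markers were 3.52 and 6.82% after PBS and 20.3 and 15.3% after cGAMP in spontaneous tumours, and 2.5 and 2.19% against 8.31 and 8.11% in implanted tumours. Fibroblast markers moved with treatment too: cells with at least 3 of 8 were 0.415 and 2% after PBS and 7.61 and 6.2% after cGAMP in spontaneous tumours, and 0.8 and 0.182% against 3.01 and 1.82% in implanted tumours. Their summed level was 19.8 and 102 CPM against 152 and 136 CPM, and 29.7 and 19.1 CPM against 110 and 71.3 CPM, with none at 0. The summed mural level was 292 and 692 CPM against 1024 and 798 CPM in spontaneous tumours, and 271 and 249 CPM against 417 and 232 CPM in implanted tumours, with none of the markers at 0. Only 7 barcodes occurred in more than 1 library.

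In the GENCODE vM21 annotation of GRCm38 (mm10), all 9 are protein-coding genes. Insr lies at chr8:3122061-3279617 on the minus strand, Igf1r at chr7:67952827-68233668 on the plus strand, Irs1 at chr1:82233101-82291416 on the minus strand and Irs2 at chr8:10984681-11008458 on the minus strand. Igfbp3 lies at chr11:7206086-7213923 on the minus strand, Igfbp4 at chr11:99041244-99054392 on the plus strand, Igfbp5 at chr1:72857932-72874884 on the minus strand and Igfbp7 at chr5:77349240-77408041 on the minus strand. Igf2 lies at chr7:142650766-142666816 on the minus strand, where Mir483 and Gm49394 overlap it on the same strand and Igf2os on the other. Its reads cannot be told apart from those of the same-strand genes by position alone. Insr, Irs1, Irs2 and Igfbp7 overlap genes of the opposite strand only.

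The 4 promoters shown next are a choice from the 9 genes. Igfbp4 was called lower after cGAMP in both models and Igfbp7 in implanted tumours only. Irs2 is an adaptor with few UMIs, and Igf1r differed between models. Each promoter is the 250 bases before the gene's start in RefSeq on GRCm38.p6, written 5′ to 3′ on the gene's strand. No annotated exon lies in any of these windows. Capitals mark a TATA box (TATAAA) in Igfbp4 and GC boxes (GGGCGG, either strand) in the others. The windows are chr11:99040994-99041243 on the plus strand for Igfbp4, chr5:77408046-77408295 on the minus strand for Igfbp7, chr8:11008930-11009179 on the minus strand for Irs2 and chr7:67952007-67952256 on the plus strand for Igf1r.
Igfbp4: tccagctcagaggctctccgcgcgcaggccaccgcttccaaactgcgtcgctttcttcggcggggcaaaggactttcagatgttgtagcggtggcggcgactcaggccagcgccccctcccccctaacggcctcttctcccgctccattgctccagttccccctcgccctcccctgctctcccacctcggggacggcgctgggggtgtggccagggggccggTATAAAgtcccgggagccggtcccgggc
Igfbp7: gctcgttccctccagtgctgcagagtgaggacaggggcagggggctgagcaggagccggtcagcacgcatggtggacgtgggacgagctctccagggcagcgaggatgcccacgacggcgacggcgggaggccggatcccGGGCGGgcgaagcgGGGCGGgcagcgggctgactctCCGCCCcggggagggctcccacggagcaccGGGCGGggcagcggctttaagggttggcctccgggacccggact
Irs2: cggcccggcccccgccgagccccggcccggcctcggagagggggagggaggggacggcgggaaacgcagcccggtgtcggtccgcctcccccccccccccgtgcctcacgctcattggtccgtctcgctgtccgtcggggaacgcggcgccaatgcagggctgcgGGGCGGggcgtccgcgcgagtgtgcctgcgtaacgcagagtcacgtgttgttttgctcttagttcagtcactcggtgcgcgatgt
Igf1r: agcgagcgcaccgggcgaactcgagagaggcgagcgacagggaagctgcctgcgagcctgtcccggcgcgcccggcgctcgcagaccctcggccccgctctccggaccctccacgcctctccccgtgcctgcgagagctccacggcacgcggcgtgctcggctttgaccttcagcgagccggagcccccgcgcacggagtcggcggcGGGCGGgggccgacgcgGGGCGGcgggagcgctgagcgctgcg

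The TATA box of Igfbp4 began 28 bases before the start, and such a motif was found in 12.4% of 32851 RefSeq promoters of this length. Igfbp7 held 4 GC boxes, Igf1r 2 and Irs2 1, and 32.7% of all promoters held at least 1. Promoters of 8 of the 9 genes were in the RefSeq table, and the missing one was that of Insr. In no window of these 8 genes were the letters of a FOXO motif (GTAAACA), a CRE (TGACGTCA) or a GAS element (TTCNNNGAA) found on either strand, and these occurred in 3.17%, 1.55% and 7.02% of all promoters. Such matches describe letters and not bound sites.

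Insr encodes the insulin receptor. Its mean level per Pecam1+ cell was 336 and 372 CPM in the spontaneous PBS libraries, 219 and 233 CPM in spontaneous cGAMP, 168 and 170 CPM in implanted PBS and 110 and 128 CPM in implanted cGAMP. The 4 groups did not overlap, in the order spontaneous PBS, spontaneous cGAMP, implanted PBS, implanted cGAMP. The log2 change after cGAMP was -0.65 ± 0.09 (SE) in spontaneous tumours (limma adjusted p = 0.00179) and -0.51 ± 0.09 in implanted tumours (limma adjusted p = 0.00365). These responses differed by 0.14 ± 0.13, which was not called (limma adjusted p = 0.691). Between models the level after PBS was 0.48 of that in spontaneous tumours, a log2 difference of -1.06 ± 0.09 (limma adjusted p = 2.5e-04). After cGAMP it was 0.528 of it, a log2 difference of -0.92 ± 0.09 (limma adjusted p = 0.0012). Both responses stayed called under every alternative tried, including the one without cells holding markers of other cell types, with log2 values of -0.72 to -0.55 and -0.61 to -0.41. In such pooled levels fewer expressing cells and less RNA per cell cannot be told apart.

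Igf1r encodes the IGF1 receptor, which also binds IGF2. Its level was 75.6 and 95.7 CPM in spontaneous PBS, 71.4 and 67.4 CPM in spontaneous cGAMP, 56.6 and 53.2 CPM in implanted PBS and 45.5 and 43.8 CPM in implanted cGAMP. Every library of implanted tumours was below every library of spontaneous tumours. The difference between models was -0.62 ± 0.12 log2 after PBS, 1.54-fold lower (limma adjusted p = 0.0139), and -0.62 ± 0.12 after cGAMP (limma adjusted p = 0.0104). The first call was lost without the filter on low values (limma adjusted p = 0.0587), without the second spontaneous PBS library and without either implanted PBS library. The second was lost without either spontaneous cGAMP library. With 1 library left out in turn the differences were -0.79 to -0.45 after PBS and -0.67 to -0.58 after cGAMP. The change after cGAMP was -0.29 ± 0.12 in spontaneous and in implanted tumours, not called in either (limma adjusted p = 0.134 and 0.0983). In implanted tumours it became called in cells with at least 2000 UMIs (-0.40, adjusted p = 0.0387) and at a fixed mix of vessel classes (-0.36, 0.0356).

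**Figure D1:**
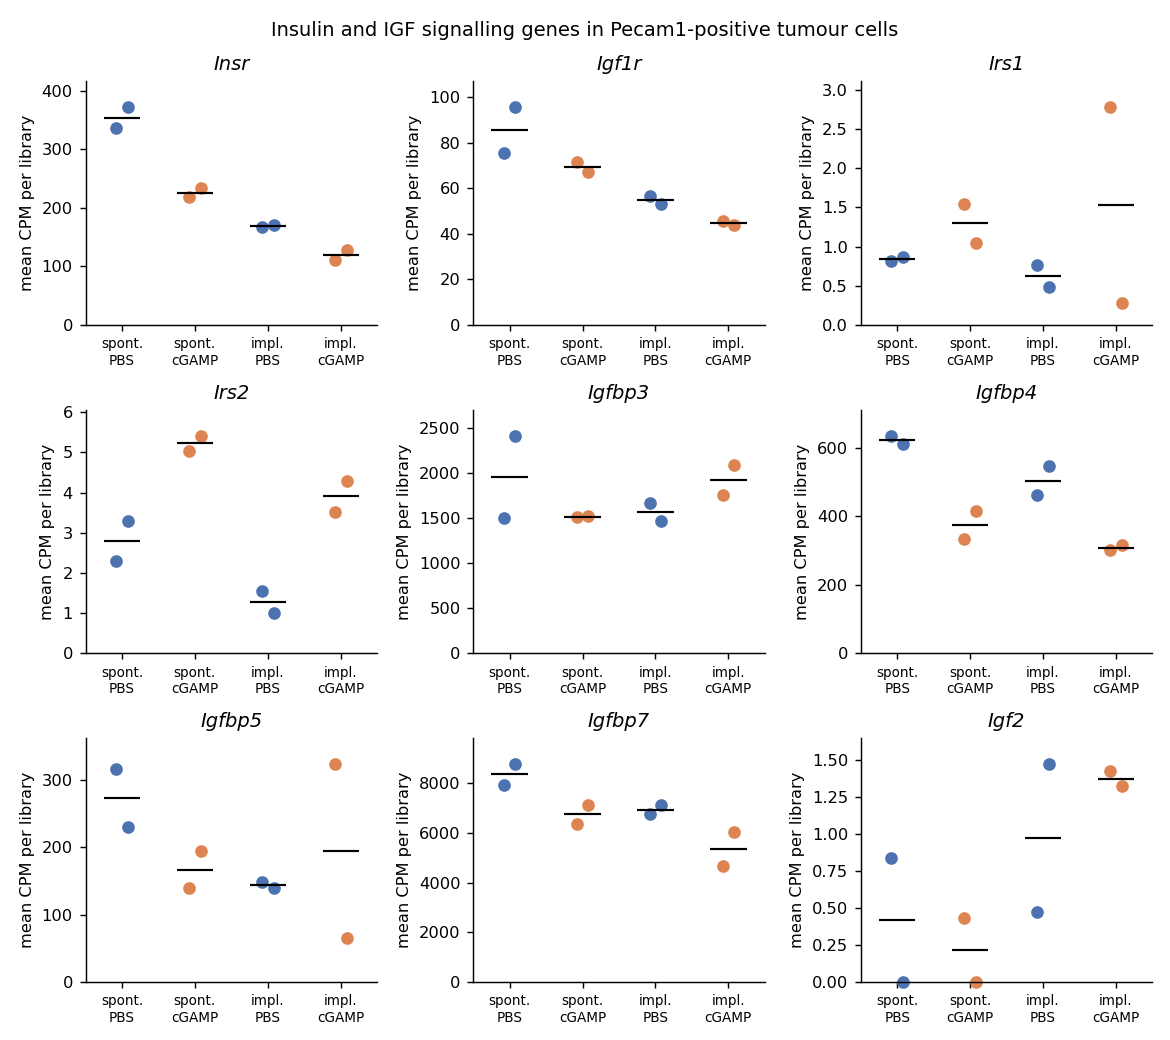
Mean level of each of the 9 genes per Pecam1+ cell, in CPM on linear axes, with 1 point per library and a line at the mean of the 2 libraries of each group; Igf2 points at 0 are libraries in which the gene is not listed. Insr steps down from 336 and 372 CPM in spontaneous PBS to 110 and 128 CPM in implanted cGAMP, whereas Igfbp5 spreads from 65.5 to 324 CPM within implanted cGAMP.

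The adaptors were sparse. Irs1, the main adaptor of IGF signalling in many tissues, had 79 UMIs in all Pecam1+ cells, and its levels lay between 0.281 and 2.78 CPM with groups that overlapped. Irs2, the adaptor best known for insulin action in liver and islets, had 262 UMIs. Its levels were 2.31 and 3.29 CPM in spontaneous PBS, 5.03 and 5.42 CPM in spontaneous cGAMP, 1.54 and 1 CPM in implanted PBS and 3.51 and 4.3 CPM in implanted cGAMP. In each model the lower cGAMP value exceeded the higher PBS value. The difference was 2.17-fold in implanted tumours, 1.11 ± 0.33 log2 (limma adjusted p = 0.0369), and 0.72 ± 0.33 in spontaneous tumours was not called (limma adjusted p = 0.185). Irs2 passed the filter only through the spontaneous cGAMP libraries, and no implanted library was above 4.3 CPM. Of its 262 UMIs, 183 (69.8%) came from cells holding markers of other cell types, which held 33.1% of all UMIs. Without those cells, and also with summed UMIs, in cells with at least 2000 UMIs and at a fixed class mix, it was below the filter and was not tested. The part of cells with other markers in the difference was not tested. The implanted call was also lost when any of the 4 implanted libraries was left out (adjusted p of 0.0649 to 0.194), over all deposited cells (1.38, adjusted p = 0.0506) and with the replicate number as a block (0.0524), and Irs2 was not tested when either spontaneous cGAMP library was left out.

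Igf2, a fetal growth factor that signals through IGF1R, had 60 UMIs. It was listed in 6 of 8 libraries, at 0.838 CPM in 1 spontaneous PBS library, 0.433 CPM in 1 spontaneous cGAMP library, 0.474 and 1.47 CPM in implanted PBS and 1.42 and 1.32 CPM in implanted cGAMP. No test was made at these levels. Most of its few UMIs came from 1 vessel class: 54 of 60 were in arterial-marker cells, of which 4.18% held at least 1.

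Among the binding proteins, Igfbp4 encodes an IGF inhibitor that is cleaved by PAPP-A. Its level was 636 and 611 CPM in spontaneous PBS, 334 and 416 CPM in spontaneous cGAMP, 462 and 546 CPM in implanted PBS and 302 and 316 CPM in implanted cGAMP. In each model both cGAMP libraries were below both PBS libraries. The log2 change was -0.74 ± 0.11 in spontaneous tumours (limma adjusted p = 0.00278) and -0.70 ± 0.11 in implanted tumours (limma adjusted p = 0.0021). Both calls held under every alternative tried, at -0.95 to -0.58 and -0.82 to -0.54. The difference between models was not called after PBS (-0.31 ± 0.11, limma adjusted p = 0.125) or after cGAMP (-0.27 ± 0.11, limma adjusted p = 0.142). With the mix of vessel classes held fixed both became called, at -0.42 (0.0356) and -0.37 (0.0433).

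Igfbp7, a matrix-bound protein of vessel walls with low affinity for IGFs, was found in 94.1% of Pecam1+ cells. Its level was 7946 and 8783 CPM in spontaneous PBS, 6370 and 7132 CPM in spontaneous cGAMP, 6749 and 7128 CPM in implanted PBS and 4682 and 6050 CPM in implanted cGAMP. Both cGAMP libraries were below both PBS libraries in each model. The fall was called in implanted tumours, 1.3-fold or -0.38 ± 0.12 log2 (limma adjusted p = 0.0422), and -0.31 ± 0.12 in spontaneous tumours was not (limma adjusted p = 0.119). The implanted call was lost under median-of-ratios scaling (0.14), without the filter on low values (0.173) and when any library but the second implanted cGAMP one was left out, for example 0.193 without the shallow first implanted cGAMP library. The spontaneous fall became called with the replicate block (0.0431) and without either implanted cGAMP library (0.0307 and 0.0312).

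Igfbp3 encodes the main carrier of IGFs in serum. Its level was 1503 and 2416 CPM in spontaneous PBS, 1510 and 1522 CPM in spontaneous cGAMP, 1669 and 1467 CPM in implanted PBS and 1758 and 2090 CPM in implanted cGAMP. The spontaneous PBS libraries differed more from each other than any 2 groups did in their means. The changes after cGAMP were -0.33 ± 0.18 log2 in spontaneous and 0.29 ± 0.18 in implanted tumours (limma adjusted p = 0.263 and 0.28). They differed by 0.62 ± 0.26, with an unadjusted p of 0.0382 and a limma adjusted p of 0.34. Without the first spontaneous PBS library the spontaneous fall was called, at -0.67 (0.0185), and without the second it was 0.01 (0.967).

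Igfbp5 encodes a binding protein abundant in mammary gland involution. Its level was 316 and 230 CPM in spontaneous PBS, 139 and 194 CPM in spontaneous cGAMP, 148 and 139 CPM in implanted PBS and 324 and 65.5 CPM in implanted cGAMP. The implanted cGAMP libraries thus lay at the top and the bottom of the whole series. No comparison was called, with a change after cGAMP of -0.72 ± 0.55 log2 in spontaneous and 0.02 ± 0.55 in implanted tumours (limma adjusted p = 0.43 and 0.979). Without the first implanted cGAMP library the implanted change was -1.12 (0.00479), and without the second it was 1.17 (0.00404). In the first, shallow library the summed level of epithelial markers was 941 CPM against 132 CPM in the second, and Igfbp5 reached 672 CPM in its epithelial-marker cells. Without cells holding markers of other types that library was at 238 CPM. In 112 Pecam1-zero cells with epithelial markers the mean Igfbp5 level was 1259 CPM. The part of those cells in the result was not tested.

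**Figure D2:**
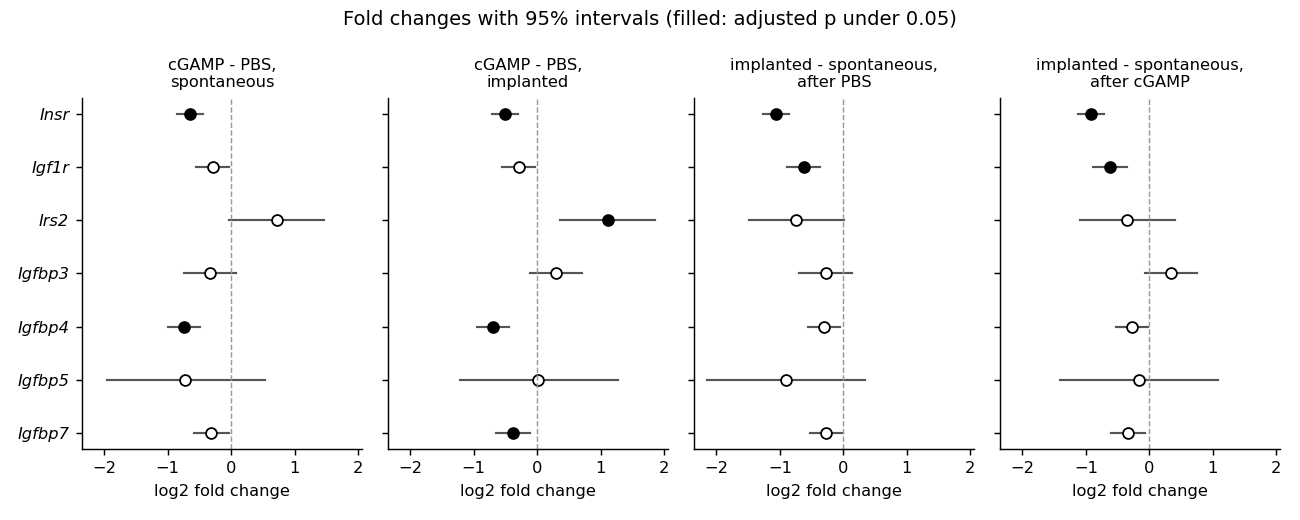
Log2 fold changes of the 7 tested genes in 4 comparisons, with bars for the 95% confidence interval from limma; filled points have an adjusted p under 0.05. Insr is filled in all 4, Igfbp4 in the cGAMP responses and Igf1r in the comparisons between models, whereas the bars of Igfbp5 cross 0 in every one.

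A UMI of Insr was found in 58.1% of Pecam1+ cells, of Igf1r in 39.4%, of Igfbp3 in 57.4%, of Igfbp4 in 70.9% and of Igfbp5 in 41.8%. In 28 Pecam1-zero cells with immune markers these shares were 3.57%, 3.57%, 14.3%, 7.14% and 35.7%, and Igfbp7 was found in 60.7%. In 39 with mural markers they were 10.3%, 35.9%, 10.3%, 25.6% and 53.8%, with Igfbp7 in 100%. In 112 with epithelial markers they were 9.82%, 7.14%, 33%, 32.1% and 64.3%, with Igfbp7 in 80.4%. The median depth was 11125 UMIs in Pecam1+ cells. It was 1187.5 in the immune-, 2659 in the mural- and 1554 in the epithelial-marker cells, so the shares are not at matched depth. For Irs1, Irs2 and Igf2 the shares of Pecam1+ cells were 1.01%, 2.42% and 0.768%.

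Other genes of the pathway were taken as lists of 57 genes, of which 39 were tested. After cGAMP, 3 were called lower and none higher in spontaneous tumours, beside 7.59% and 5.09% of all genes. In implanted tumours 9 were lower and 3 higher, beside 16.4% and 8.6% of all genes, and none was called for the difference, beside 0.662%. Their median log2 change was -0.13 in each model, beside -0.10 over all genes. Between models, 1 was lower after PBS, beside 4.44% of all genes, and after cGAMP 4 were lower and 1 higher, beside 8.53% and 5.23%. Calls of these pathway genes were not checked under the alternatives used for the 9 genes.

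Grb10, which encodes an adaptor that inhibits both receptors, was called in each model after cGAMP. Its level went from 112 and 132 CPM to 80.2 and 84.3 CPM in spontaneous tumours and from 96.1 and 97.7 CPM to 41.5 and 42.7 CPM in implanted tumours. The falls were -0.56 ± 0.10 log2 (limma adjusted p = 0.00603) and -1.18 ± 0.10 (limma adjusted p = 5.3e-05), and their difference of -0.63 ± 0.14 was not called (limma adjusted p = 0.0886). Htra1, a secreted protease that cleaves IGFBPs, fell by 1.13 ± 0.26 log2 in spontaneous and by 1.58 ± 0.26 in implanted tumours (limma adjusted p = 0.0218 and 0.00223). Of the IGFBP protease list 3 of 5 were tested, and Stc1, an inhibitor of PAPP-A, rose in implanted tumours (0.81 ± 0.17, limma adjusted p = 0.00726), with -0.05 ± 0.17 in spontaneous tumours and a difference of 0.86 ± 0.24 that was not called (limma adjusted p = 0.165).

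Of ligands and receptors, Igf1 had 45.6 and 54.4 CPM in implanted PBS and 21 and 29.7 CPM in implanted cGAMP. The fall was -0.97 ± 0.18 log2 (limma adjusted p = 0.00475), while -0.31 ± 0.18 in spontaneous tumours was not called (limma adjusted p = 0.287). Igf2r, which clears IGF2 without signalling, fell by 0.55 ± 0.16 in implanted tumours (limma adjusted p = 0.0324), and -0.43 in spontaneous tumours was not called. The responses of the 2 models differed by -0.65 for Igf1 and -0.13 for Igf2r, and neither difference was called. Ins1, Ins2, Igfbp1 and Irs4 were listed in no library. None of the binding proteins and partners outside the 9 genes passed the filter.

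In the PI3K-AKT arm 25 of 25 genes were tested. In spontaneous tumours 1 was lower after cGAMP, Rictor, a subunit of mTORC2, at -0.34 log2, beside 7.59% of all genes. In implanted tumours 2 were higher and 4 lower, beside 8.6% and 16.4% of all genes. Eif4ebp1, a translation repressor under mTORC1, rose by 0.40 log2. Akt1 fell by 0.28, Foxo1 by 0.31, Gsk3b by 0.24 and Pik3r3, a regulatory subunit of PI3K, by 0.67. Against spontaneous tumours, Rictor was lower after PBS (-0.48), and Foxo4, a FOXO transcription factor, was lower after cGAMP (-0.97). Among the adaptors, 9 of 13 were tested, and Gab1 was lower after cGAMP in implanted tumours (-0.47) and lower in implanted than in spontaneous tumours after cGAMP (-0.70), as was Grb10 (-0.95).

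Vessel types were read from 6 lists of 8 markers that hold none of the 9 genes. A Pecam1+ cell took the list with the highest mean score if at least 3 of its markers were found and it led by at least 0.25, and 989 cells (13.8%) lay within 0.1 of that lead on either side. The highest list of these cells was AQP7+ capillary in 405, tip in 267, venous in 171, arterial in 123 and lymphatic in 12. This gave 1173 arterial-, 1232 venous-, 879 AQP7+ capillary-, 925 tip-, 389 lymphatic- and 293 proliferative-marker cells, with 2268 unassigned. The classes are ranges of a score and not cell types. Each class was compared with the other Pecam1+ cells of the same library by an exact two-sided sign-flip permutation test over the 8 libraries, for which 0.00781 is the smallest p, adjusted over all genes and classes. Proliferative-marker cells were left out, as 1 library held 3 of them. Of 35 pairs of gene and class 17 were called, 5 higher and 12 lower, each in 8 of 8 libraries with an adjusted p of 0.0412.

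Arterial-marker cells had more Igfbp4, with a mean of 887 against 372 CPM and a difference of 1.35 log2, and less Igfbp5 (-1.23). Of all genes 11.4% were higher and 12.8% lower in this class. Their Igfbp4 level was 770 to 1190 CPM by library, and that of the other cells 181 to 581 CPM, so the ranges did not overlap.

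Venous-marker cells had more Insr, at 307 against 199 CPM (0.59 log2). Igfbp3 was at 177 against 2047 CPM there (-3.78), and Igfbp7 was also lower (-0.40). In this class 5.99% of all genes were higher and 12.5% lower. Igfbp3 was at 36.4 to 409 CPM in the venous-marker cells of any library and at 1710 to 2809 CPM in the others.

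AQP7+ capillary-marker cells had more Igfbp7, at 9313 against 6506 CPM (0.53), and less Igfbp4 (-1.19), Igfbp5 (-0.88), Igfbp3 (-0.80) and Insr (-0.45), where 2.59% of all genes were higher and 9.6% lower. Tip-marker cells had more Igfbp3, at 4093 against 1377 CPM (1.52), and less Igfbp5 (-0.82) and Igfbp4 (-0.67), where 7.66% were higher and 11.7% lower. Igfbp3 was at 2419 to 5948 CPM in tip-marker cells and at 1189 to 1818 CPM in the others, again without overlap.

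Lymphatic-marker cells stood furthest from the rest. Igfbp5 was at 751 against 165 CPM (2.37), whereas Insr was at 23.4 against 226 CPM (-3.19), Igfbp3 at 95 against 1839 CPM (-5.81) and Igfbp7 at 618 against 7184 CPM (-3.73). Of all genes 9.61% were higher and 10.9% lower in this class. Insr was at 10.5 to 32.8 CPM in lymphatic-marker cells of any library and at 118 to 390 CPM in the others. Igf1r was not called in any class, with 0.42 in tip- and 0.46 log2 in lymphatic-marker cells (exact test, adjusted p = 0.0828 for each). Of the 262 Irs2 UMIs, 56 came from the 389 lymphatic-marker cells.

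**Figure D3:**
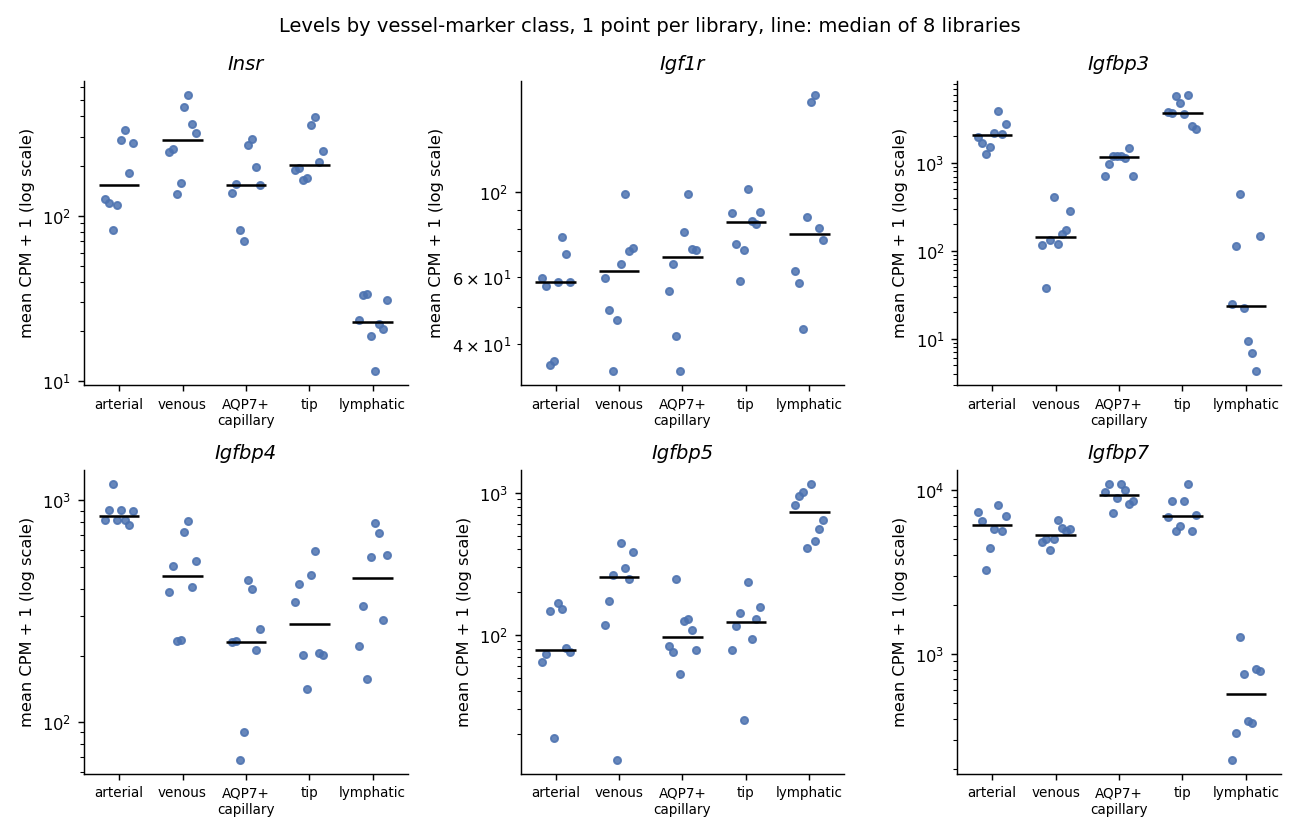
Mean level (CPM + 1, log axis) of 6 of the genes in the 5 vessel-marker classes, with 1 point per library and a line at the median of the 8 libraries. Igfbp4 is highest in arterial-marker cells, Igfbp3 in tip-marker cells and Igfbp5 in lymphatic-marker cells, where Insr lies between 10.5 and 32.8 CPM.

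The changes after cGAMP were then read within the 5 classes and the unassigned cells, as descriptions and without tests. Insr was lower in both cGAMP libraries than in both PBS libraries in 5 of 6 classes of each model. Of all genes 12.2% in spontaneous and 16.1% in implanted tumours were lower in this way in at least 4 of 6 classes. In venous-marker cells Insr went from 455 and 538 to 359 and 318 CPM in spontaneous and from 242 and 252 to 135 and 158 CPM in implanted tumours. In tip-marker cells it went from 353 and 397 to 211 and 245 CPM and from 189 and 194 to 164 and 168 CPM. The exception was the lymphatic-marker cells, where the level was 10.5 to 32.8 CPM and the PBS and cGAMP libraries of each model overlapped.

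Igfbp4 was lower after cGAMP in 5 of 6 classes of spontaneous and in 4 of 6 classes of implanted tumours. Arterial-marker cells, in which the gene was highest, overlapped between treatments in both models, as did lymphatic-marker cells in implanted tumours. Arterial-marker levels were 901 and 814 CPM after PBS and 770 and 892 CPM after cGAMP in spontaneous tumours. In implanted tumours they were 811 and 904 CPM against 1190 and 811 CPM. In tip-marker cells Igfbp4 went from 461 and 591 to 204 and 200 CPM and from 347 and 417 to 201 and 141 CPM. In AQP7+ capillary-marker cells it went from 435 and 398 to 211 and 261 CPM and from 229 and 231 to 66.7 and 89.6 CPM. Whether classes differ in their response was not tested.

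**Figure D4:**
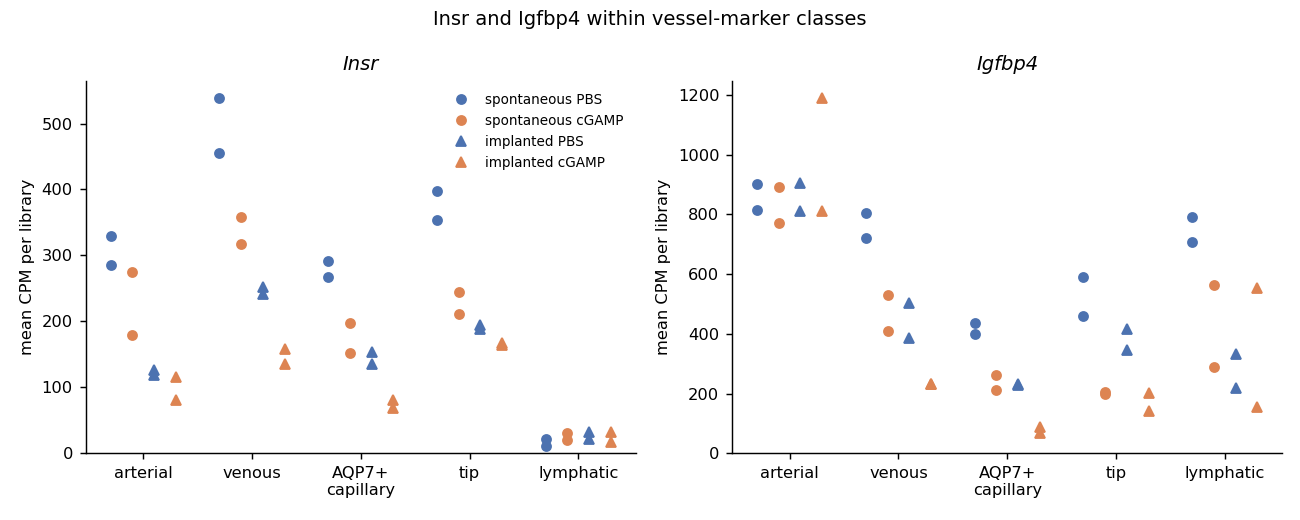
Mean level of Insr and Igfbp4 in CPM within each vessel-marker class, with 1 point per library; circles are spontaneous and triangles implanted tumours, blue is PBS and orange cGAMP. Igfbp4 points of PBS and cGAMP mix in arterial-marker cells, at 770 to 1190 CPM, and are apart in tip-marker cells.

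Between models, Insr was lower in both implanted libraries in 5 of 6 classes after PBS and after cGAMP, where 10.9% and 12.3% of all genes were lower in this way in at least 4 of 6 classes. The exception was the lymphatic-marker cells, at 10.5 to 32.8 CPM by library. There both implanted libraries were above both spontaneous ones after PBS, and the models overlapped after cGAMP. In arterial-marker cells the PBS levels of Insr were 286 and 330 CPM in spontaneous and 126 and 119 CPM in implanted tumours. Igf1r was lower in 4 of 6 classes after PBS and in 5 of 6 after cGAMP. Its widest gap after PBS was in lymphatic-marker cells, at 171 and 179 CPM in spontaneous and 61.1 and 56.6 CPM in implanted tumours. After cGAMP these cells were the exception, at 79.5 and 74 CPM against 42.7 and 85 CPM.

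Single classes also showed gaps of their own. Igfbp7 in lymphatic-marker cells was at 390 and 376 CPM after PBS and at 806 and 791 CPM after cGAMP in spontaneous tumours, and at 225 and 327 CPM against 1275 and 753 CPM in implanted tumours. These cells held the lowest Igfbp7 levels, and their rise opposed the fall over all Pecam1+ cells. In venous-marker cells Igfbp3 was at 120 and 155 CPM against 170 and 281 CPM in spontaneous tumours and at 116 and 36.4 CPM against 131 and 409 CPM in implanted tumours, so the treated values again exceeded the PBS values without overlap. Igf1r in lymphatic-marker cells of spontaneous tumours was at 171 and 179 CPM after PBS and 79.5 and 74 CPM after cGAMP. None of these was tested, and the class sizes were 21 to 129 lymphatic- and 54 to 289 venous-marker cells by library. These gaps are a selection from all genes, classes and comparisons, and no share over all genes was counted for them. Sparse genes showed such gaps too. Igf2 was higher after cGAMP without overlap in 3 classes of implanted tumours and overlapped in 3. In spontaneous tumours it overlapped in 6 classes.

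Genes whose values followed each member most closely over single cells were taken by the median Pearson r of the 8 libraries, as a description; cells of a library share its depth and preparation. Insr went most with Flt1 (0.47), a VEGF receptor, Sema6d (0.42) and Ptprb (0.41), an endothelial phosphatase. Igfbp3 went most with Stc1 (0.55), Flt1 (0.49) and Gpihbp1 (0.48), and Igfbp7 with Sparc (0.71), Cd34 (0.57) and Col4a2 (0.56), of which Sparc and Col4a2 encode matrix proteins. Igfbp4 went with the arterial connexin gene Gja5 (0.31), and Igfbp5 with Adamtsl1 (0.34). For Igf1r the nearest was Tcf4, at 0.24.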

How the data were processed

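CD31+ cells sorted from tumours were sequenced on the 10x platform, and the submitters' processing notes name Cell Ranger 3.0.0, mm10 and Seurat 3.1.1. The deposited values of the authors are natural log, ln(1 + UMIs × 10000 / total of the cell); the authors removed cells with few genes or much mitochondrial RNA and genes found in under 3 cells. UMIs were worked back, and 100% came out whole within 0.01. How doublets were treated is not given in the sources used here, and no doublet caller was run.

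Levels are means over Pecam1+ cells of each cell's CPM, 1 value per library. Genes that reached 5 CPM in 2 or more libraries entered limma 3.58.1 (R 4.3.3) on log2(CPM + 1), with 1 mean per group over all 8 libraries, eBayes with trend and Benjamini-Hochberg adjustment, called under 0.05. Fold changes of low genes are understated on this scale. The class test had been planned with adjustment over the 45 pairs of gene and class alone; the adjustment over all genes and classes, chosen after seeing the data, is the one printed. Both tests were tested on simulated data. All 9 genes are named, with up to 4 called genes per pathway list and comparison and the 3 most similar genes per member, of which only the nearest are given; some called pathway genes are counted but not reported here by name. Members and lists were chosen with earlier results of these data known. Alternatives were the pseudocount, filter, scaling, summed UMIs, choice of cells, class mix, each library left out and a replicate block. Same-numbered libraries deviated with r of -0.22 to 0.13, so their numbers did not pair them.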

Additional observations from a re-analysis of the deposited data

Results flagged for a closer look

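Igfbp3 in tip-marker cells moved in opposite directions after cGAMP in the 2 tumour models. It was at 3612 and 5948 CPM after PBS and 2628 and 2419 CPM after cGAMP in spontaneous tumours, a log2 change of -0.88, and at 3759 and 3714 CPM against 5843 and 4824 CPM in implanted tumours, a change of 0.51. The 2 libraries of each group lay on the same side, and the log2 responses differed by 1.39. This difference was not tested. It was flagged because the responses differed between models, and no share over all genes was counted for it. Over all Pecam1+ cells the responses of Igfbp3 differed by 0.62 ± 0.26, which was not called (limma adjusted p = 0.34). The spontaneous change over these cells was -0.67 without the first spontaneous PBS library and 0.01 without the second.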

How the results depend on the processing

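Called members numbered 2, 4, 0, 2 and 2 for the response in spontaneous tumours, the response in implanted tumours, their difference, and the comparison of models after PBS and after cGAMP. The 4 include Irs2, which entered the test only through the spontaneous cGAMP libraries, so nothing rests on its call. With 1 library left out in turn the counts were 2 to 4, 2 to 4, 0 to 1, 1 to 3 and 1 to 4. Without either implanted cGAMP library Igfbp5 and Igfbp7 joined the spontaneous response. Without either spontaneous cGAMP library or either implanted PBS library 2 members remained called in implanted tumours, Insr and Igfbp4. Without the second implanted cGAMP library the difference gave 1 (Igfbp5, adjusted p = 0.017) and the comparison after cGAMP 4, and without either spontaneous cGAMP library the latter gave 1. After PBS the count was 1 without the second spontaneous PBS library, without either implanted PBS library, and without the filter on low values. The other alternatives left these counts within 1.5 times.

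The numbers in the labels do not pair the libraries, and same-numbered libraries deviated with r of -0.22 between spontaneous PBS and cGAMP and of -0.14 between the PBS groups. With the replicate number as a block 3, 3, 0, 2 and 3 members were called, and Irs2 in implanted tumours was lost (0.0524) while Igfbp7 was gained in spontaneous tumours (0.0431) and after cGAMP (0.03). No other call of a member changed under the block. With the numbers of spontaneous PBS crossed, which was chosen after seeing the data, the block gave 2 members and 1253 genes for the spontaneous response and 2 members and 778 genes between models after PBS.

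Directions turned for changes near 0 or set by 1 library, and the cause was not tested. Igfbp5 in implanted tumours was -0.45 with summed UMIs, -0.11 without cells holding markers of other types, -0.01 in cells with at least 2000 UMIs, -0.02 without proliferative-marker cells, -0.36 at a fixed class mix and -1.12 to 1.17 with 1 library left out. After cGAMP the model difference of Igfbp5 was 0.08 over all deposited cells and -1.31 to 0.98 with 1 library left out. For the difference of responses, Igf1r was 0.01 with a pseudocount of 5 CPM, 0.00 by median of ratios, 0.13 over all deposited cells and 0.06 without cells holding other markers, and Igfbp4 was -0.03 without those cells. With 1 library left out it ranged from -0.17 to 0.17 for Igf1r, -0.11 to 0.20 for Igfbp4, -0.41 to 1.88 for Igfbp5 and -0.26 to 0.11 for Igfbp7. Igfbp3 ranged from -0.67 to 0.01 in spontaneous tumours and from -0.63 to 0.06 between models after PBS.

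Of 45 pairs of gene and class 23 were called when adjusted over those pairs, and 17 to 22 under the alternatives, 17 of them over all genes and classes. Some pairs turned, none of them called over all genes and classes. In venous-marker cells Igfbp5 was -0.19 at a lead of 0.5 and -0.02 without cells holding other markers, and Igfbp4 -0.02 without them, with -0.10 to 0.42 and -0.06 to 0.08 when 1 library was left out. In AQP7+ capillary-marker cells Igf1r was 0.11 at a lead of 0.5, 0.05 in cells with at least 2000 UMIs, 0.08 with summed UMIs and -0.08 to 0.02 with 1 library left out. In tip-marker cells Insr was 0.22 and called over the 45 pairs, but not over all genes and classes (exact test, adjusted p = 0.063). It turned to -0.02 at a lead of 0.5. Irs1 there was 0.03 in cells with at least 2000 UMIs and -0.29 to 0.02 with 1 library left out. Irs2 there was 0.05 without cells holding other markers, 0.01 with a pseudocount of 5 CPM and -0.47 to 0.13 with 1 library left out.

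Among all genes, calls numbered 1322, 2609, 69, 816 and 1434. Without the filter they were 770 in the spontaneous response, 0 for the difference, 284 after PBS and 738 after cGAMP. In limma 1400 genes had an unadjusted p under 0.05 for the difference in the filtered fit. With summed UMIs they were 2839, 112 (difference) and 1317 (after PBS), and the difference gave 43 over all deposited cells and 127 at a fixed class mix. Leaving out 1 library gave 448 to 1808, 1265 to 2495, 2 to 171, 212 to 1234 and 156 to 1447. With 2 libraries per group, sparse genes such as Irs1, Irs2 and Igf2 cannot be compared firmly at this depth.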
